A study of Mus musculus with 6 samples.

Results

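The 9 genes described here control how muscle stem cells become muscle fibres and how fibres keep their identity: Pax7, Myf5, Myod1, Myog, Myf6, Cdh15, Mef2a, Mef2c and Mef2d. They were taken by symbol, and each had 1 row in the deposited table of 20015 mouse genes. Quadriceps is the thigh muscle that straightens the knee, and its RNA was sequenced in 6 libraries: 3 from quadriceps of limbs with a torn anterior cruciate ligament (ACL, a stabilising ligament of the knee), called injured, and 3 from non-injured quadriceps. Each group holds the letters A, B and C. The labels name no strain, sex, age, time after injury or way of injuring, give no agent or genetic change in either group, place the injured samples before any reconstruction surgery, and do not state whether replicate libraries are separate animals. The p-values therefore reflect only how these libraries vary, which may be technical variation. The samples are labelled Mus musculus, although the submitters' text speaks of human tissue. In the mouse annotation GENCODE M21, 96.64% of the table's genes were found by name at the deposited position (ends within 1 base), and the values were read as mouse.

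Satellite cells are the stem cells of skeletal muscle and lie between the fibre and its basement membrane, where they express the transcription factor Pax7 and the adhesion protein M-cadherin, encoded by Cdh15. On damage they divide, express Myf5 and Myod1, then Myog, and fuse into fibres. Myf5, Myod1, Myog and Myf6 are the myogenic regulatory factors, basic helix-loop-helix proteins that bind E-box DNA together with E-proteins. The MEF2 factors, encoded by Mef2a, Mef2c and Mef2d, bind A/T-rich sites in muscle genes and act with the myogenic factors. In adult muscle Myog is also known to rise in fibres that have lost their nerve.

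The start of Myog is printed because it holds both kinds of motif and Myog has the highest fold change of the 9 genes. The RefSeq bases before the gene start on GRCm38.p6 (the assembly of mm10), chr1:134289754-134289988 on the plus strand, are given 5′ to 3′, with an E-box (CANNTG) and a MEF2 core motif (CTANNNNTA or its reverse complement) in capitals:
Myog: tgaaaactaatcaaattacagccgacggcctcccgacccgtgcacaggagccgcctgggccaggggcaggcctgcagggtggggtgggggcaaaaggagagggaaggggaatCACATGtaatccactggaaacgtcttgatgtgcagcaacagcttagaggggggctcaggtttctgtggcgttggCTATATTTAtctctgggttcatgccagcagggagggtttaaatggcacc
The E-box begins 123 bases and the MEF2 core 49 bases before the GENCODE start. RefSeq windows of 300 bases around a start site were matched for 7 of the 9 genes, in 9 windows. Over all 32851 such windows, 72.31% held an E-box, 21.04% a MEF2 core and 15.73% both. Of the 9 windows only that of Myog and 1 of the 3 of Mef2c held both. The whole window of Myog held 2 E-boxes, 1 of them past the end of the stretch printed above, and 1 MEF2 core. The window of Cdh15 held 4 E-boxes and no MEF2 core, and those of Pax7 and Mef2d held neither. Those of Myf5 and Mef2a each held 2 MEF2 core matches, which overlap and start at neighbouring bases, and no E-box. A match describes letters and does not show that a factor binds.

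None of the 9 genes passed the test between injured and non-injured quadriceps. All 9 passed the filter on low counts, and 0 had an adjusted p under 0.05 in edgeR's quasi-likelihood test, where 0.746% of the 16095 genes tested were called (0.715% higher and 0.0311% lower). DESeq2, which called 2.03% of all genes, and limma-voom, which called 0.367%, called 0 of the 9 as well. At an unadjusted p under 0.05 there were 2, Myog and Mef2a, where 15.4% of all genes lay under that value. The log2 fold changes were positive for 4 genes and negative for 5, with a median of -0.07 against 0.00 over all genes. The groups did not overlap for 3 genes (Myog higher, Mef2a and Mef2c lower in injured), that is, for 3 of 9 against 21.5% of all genes (11.9% higher and 9.57% lower). Libraries of the same letter deviated together from their group means, and with the letter as a block in edgeR 0 of the 9 passed as well, against 5.86% of all genes. In that fit 3 had an unadjusted p under 0.05, against 21.8% of all genes.

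**Figure D1:**
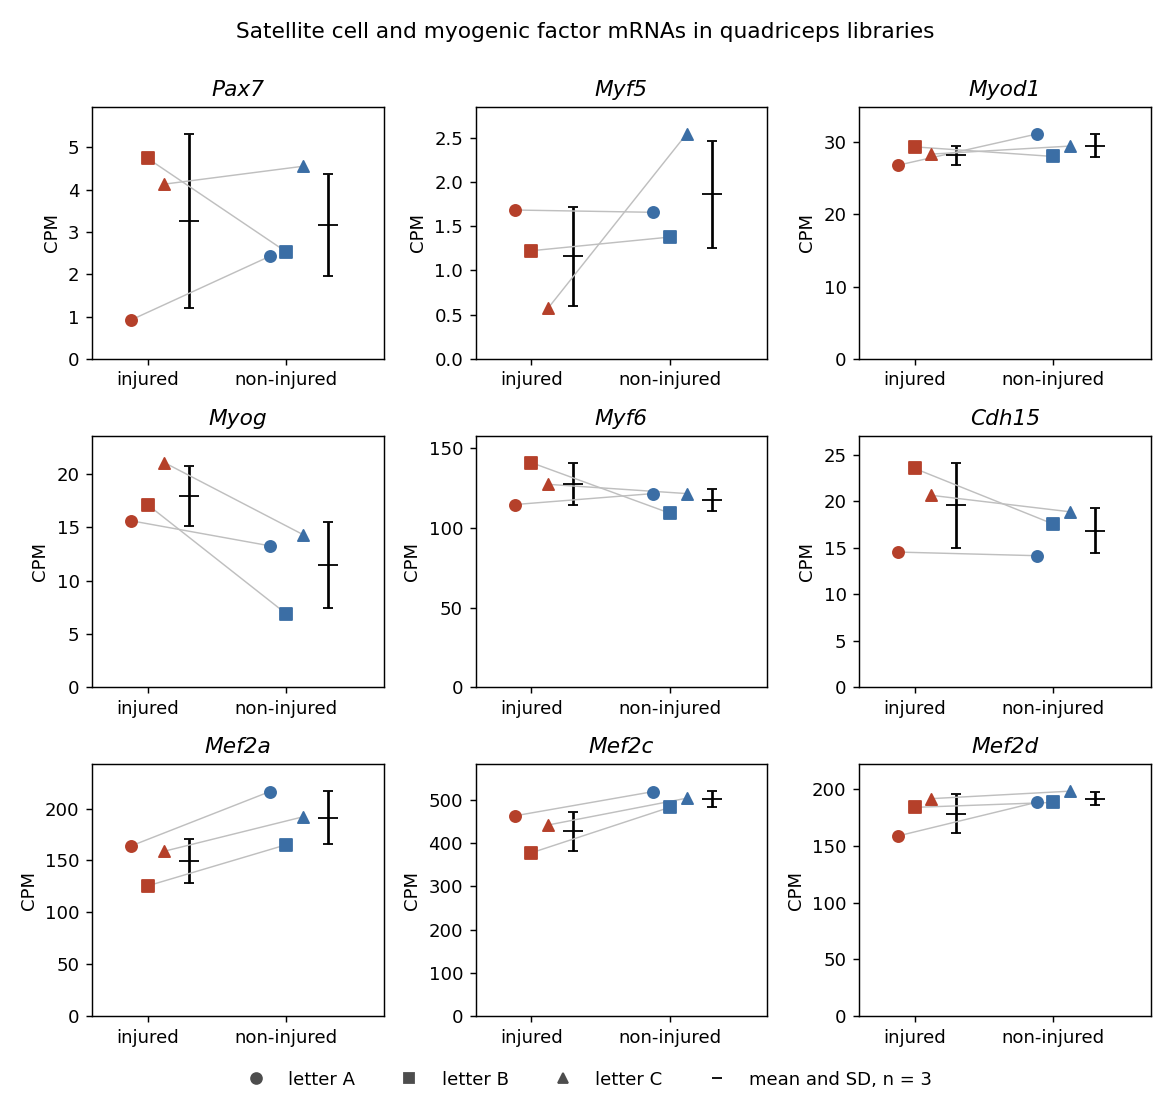
CPM (y axis, from 0) of the 9 genes in the injured (red, left) and non-injured (blue, right) libraries. Symbols mark the letters, grey lines join libraries of the same letter, and black bars give mean and SD (n = 3). Myog was higher, and Mef2a and Mef2c lower, in every injured library than in every non-injured one, and the other 6 genes overlapped.

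Pax7 (chromosome 4, 139737062 to 139833528, mm10), the defining factor of satellite cells, was sparse. It had 6, 31 and 29 counts in injured A, B and C, against 19, 22 and 34 in non-injured A, B and C. Injured A was the lowest of the 6 libraries, with an exact 95% Poisson interval of 2.20 to 13.1 counts that covers counting error only. The intervals of injured B (21.1 to 44.0) and injured C (19.4 to 41.7) did not meet that of injured A. In CPM, the count scaled to a common library total with TMM factors, injured B was the highest of the 6 libraries at 4.74 and injured A the lowest at 0.919. Pax7 averaged 3.26 ± 2.05 CPM in injured and 3.17 ± 1.2 CPM in non-injured libraries (SD, n = 3 each). The log2 fold change was 0.05 ± 0.51 (SE, adjusted p 0.974 by edgeR), with a 95% interval from -1.05 to 1.16. That interval reaches past a doubling and past a halving, so these libraries do not resolve a change of that size in either direction. The sign turned to -0.05 with the letter block, and the value ran from -0.31 without injured B to 0.48 without injured A.

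Cdh15 (chromosome 8, 122847966 to 122867397), whose protein holds satellite cells to the fibre, was better counted. It had 14.6, 23.5 and 20.7 CPM in injured A, B and C, against 14.2, 17.6 and 18.9 CPM in non-injured A, B and C. Letter A was the lowest in both groups, and the groups overlapped. Each injured library of Cdh15, as of Myog, lay above the non-injured one of its letter, which was so for 21.6% of all genes. The log2 fold change was 0.22 (95% interval -0.23 to 0.66, edgeR adjusted p 0.671).

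Myf5 (chromosome 10, 107482908 to 107486134), which with Myod1 commits cells to the muscle lineage, was the sparsest of the 9, at a mean of 11.2 counts per library. It had 11, 8 and 4 counts in the injured libraries and 13, 12 and 19 in the non-injured ones, which is 23 counts against 44 in all. In CPM the groups overlapped, because injured A (1.68) lay above non-injured A (1.66) and B (1.38). The log2 fold change of -0.68 had an interval from -1.84 to 0.49 (edgeR adjusted p 0.595). Genes with few counts leaned towards injured as a whole (median log2 0.39 over the 3303 genes with a mean under 20 counts), and Myf5 had the opposite sign.

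Myod1 (chromosome 7, 46376474 to 46379099) varied little between libraries. It had 26.8, 29.3 and 28.3 CPM in injured A, B and C, against 31.1, 28.01 and 29.5 CPM in non-injured A, B and C. All 6 values lay within that narrow span and the groups overlapped. The log2 fold change was -0.07 ± 0.14 (SE, edgeR adjusted p 0.861). Its 95% interval ran from -0.37 to 0.24.

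Myog (chromosome 1, 134289989 to 134292548), the factor that starts terminal differentiation, had the highest fold of the 9. It had 15.6, 17.1 and 21.1 CPM in injured A, B and C, against 13.3, 6.89 and 14.3 CPM in non-injured A, B and C. Every injured library lay above every non-injured one, and non-injured B, with 60 counts, was the lowest by far. Myog was 1.57-fold higher in injured libraries (log2 0.65 ± 0.25 SE, 95% interval 0.10 to 1.198), which did not pass (edgeR adjusted p 0.25, and 0.0582 with the letter block). Within letters the log2 differences came to 0.23 (A), 1.25 (B) and 0.54 (C). Without non-injured B the log2 fold change was 0.36 (edgeR adjusted p 0.497), so the size rests in large part on that library. Over all alternatives the adjusted p ran from 0.0582 to 0.497.

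Myf6 (chromosome 10, 107492853 to 107494737), the myogenic factor of mature fibres, lies 6718 bases from Myf5. It had 115, 141 and 127 CPM in injured A, B and C, against 121, 109 and 121 CPM in non-injured A, B and C. Injured B and C lay above all non-injured libraries and injured A between them. The log2 fold change was 0.12 (95% interval -0.18 to 0.42, edgeR adjusted p 0.734).

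Mef2a (chromosome 7, 67231163 to 67372858) had the smallest p of the 3 MEF2 genes. It had 164, 126 and 159 CPM in injured A, B and C, against 216, 165 and 192 CPM in non-injured A, B and C. The groups did not overlap, but injured A and non-injured B lay next to each other. Letter B was the lowest in both groups, and the difference within letters was even, with log2 values of -0.40, -0.40 and -0.27 for A, B and C. The log2 fold change was -0.36 ± 0.16 (SE, edgeR adjusted p 0.304). With the letter as a block it was -0.36 ± 0.10 (SE), with an adjusted p of 0.0501 in edgeR, just above the threshold of 0.05, and over all alternatives it ran from that value to 0.632. Mef2a overlaps the unclassified models Gm44667 and Gm44668 on its own strand (means of 182 and 63.2 counts) and Lysmd4 on the other. Fractional values numbered 3 for Mef2a, 4 for Mef2c and 5 for Mef2d. No overlapping gene was found for Mef2c, and for Mef2d only an antisense gene with a mean of 8.58 counts. Fractional values were thus not particular to Mef2a. Whether its reads were shared with the genes it overlaps was not tested.

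Mef2c (chromosome 13, 83504034 to 83667080) was the most counted of the 9 genes, with a mean of 3439 counts per library. It had 463, 377 and 442 CPM in injured A, B and C, against 519, 483 and 504 CPM in non-injured A, B and C. Every injured library lay below every non-injured one. The log2 fold change was -0.23 ± 0.14 (SE, edgeR adjusted p 0.45, and 0.191 with the letter block). Mef2d (chromosome 3, 88142372 to 88172086) had 159, 184 and 192 CPM in injured A, B and C, against 189, 188 and 198 CPM in non-injured A, B and C. Injured C lay above 2 of the non-injured libraries, and the log2 fold change was -0.11 (95% interval -0.40 to 0.19, edgeR adjusted p 0.763). Each injured library lay below the non-injured one of its letter for all 3 MEF2 genes, a pattern that 21.9% of all genes showed. The 603 most counted genes, to which all 3 belong, leaned towards non-injured as a whole, with a median log2 fold change of -0.145. Mef2d (-0.11) lay above that median, and Mef2c (-0.23) and Mef2a (-0.36) lay below it. Whether the MEF2 genes differed from those most counted genes was not tested.

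**Figure D2:**
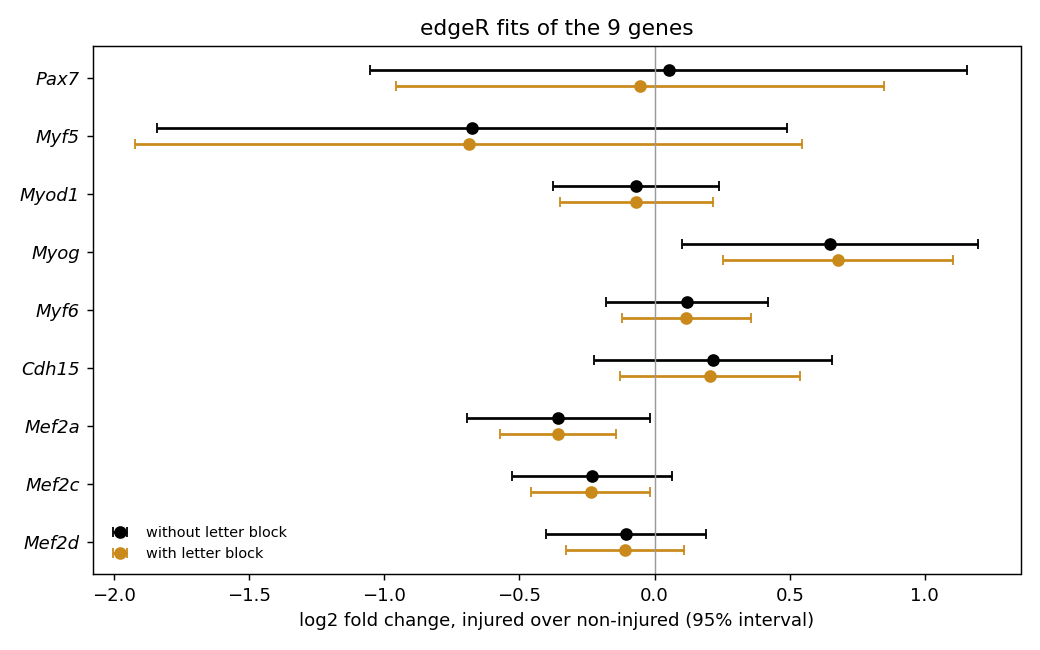
Log2 fold changes of injured over non-injured (x axis) with 95% intervals for the 9 genes (y axis), from edgeR without (black) and with (orange) the letter as a block. The intervals of Myog (0.10 to 1.198) and Mef2a (-0.69 to -0.02) without the block leave out 0 before adjustment, and neither gene passed after adjustment over all genes.

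Per length, Myf6 mRNA was the most abundant of the 9. In CPM per kilobase of the longest annotated protein-coding transcript it reached 101 ± 10.4 in injured and 92.9 ± 5.65 in non-injured libraries (SD, n = 3 each). Mef2c followed with 68.1 ± 7.10 in injured and 80.0 ± 2.90 in non-injured libraries, then Mef2d with 33.0 ± 3.19 in injured and 35.5 ± 1.05 in non-injured libraries. Mef2a (27.0 ± 3.78 in injured and 34.5 ± 4.63 in non-injured libraries) overlapped with Mef2d within 1 SD in both groups. Next in order came Myod1 (15.1 ± 0.69 in injured, against 15.9 ± 0.84 in non-injured libraries) and Myog (12 ± 1.89 in injured and 7.69 ± 2.69 in non-injured libraries), followed by Cdh15 (6.02 ± 1.41 in injured and 5.19 ± 0.75 in non-injured libraries). Myog and Cdh15 overlapped within 1 SD in non-injured libraries. Myf5 and Pax7, the factors of the stem and committed cell, stayed under 1 CPM per kilobase in the mean of either group and could not be ordered within their spread. Merged exons of all annotated transcripts are far longer for Mef2a and Mef2c. Over them Mef2c came to 27.2 CPM per kilobase in injured and 31.9 in non-injured libraries. That was level with Mef2d at 29.8 in injured and 32.0 in non-injured ones. Mef2a came to 10.2 ± 1.4 in injured and 13.0 ± 1.7 in non-injured libraries, below Myod1 in both groups. In injured libraries Mef2a also lay below Myog, with overlap within 1 SD. The places of Mef2a and Mef2c among the 9 genes thus depend on the length used.

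**Figure D3:**
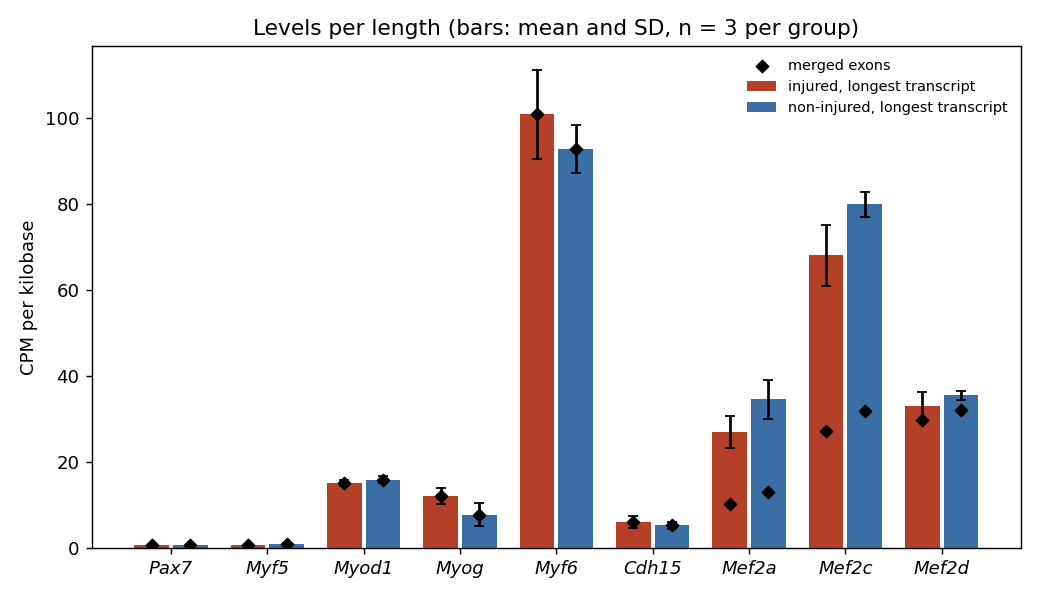
CPM per kilobase (y axis, from 0) of the 9 genes over the longest protein-coding transcript in injured (red, left) and non-injured (blue, right) libraries. Bars give the mean with SD (n = 3), and diamonds the mean over merged exons. Myf6 stood at 101 in injured and 92.9 in non-injured libraries, while Pax7 and Myf5 were near 0 in both groups.

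Within the 4 myogenic factors, Myf6 made up 77.3% to 80.0% of the summed CPM per kilobase in injured and 78.3% to 81.0% in non-injured libraries. The share of Myod1 was 11.3% to 12.4% in injured and 12.9% to 14.1% in non-injured libraries, and that of Myog 8.22% to 10.8% in injured and 4.32% to 7.81% in non-injured ones. The ratio of Myog to Myod1 counts, which no scaling factor enters, was 0.583, 0.583 and 0.744 in injured A, B and C, against 0.426, 0.246 and 0.486 in non-injured A, B and C. It did not overlap between groups. This ratio was chosen after the values were seen and was not tested. Because Myod1 varied little between libraries, the ratio largely repeats the result for Myog. Shares of a fixed sum move together, so those of Myod1 and Myog are not separate results. The ratio of Myog to Myf6 did not overlap between groups either, while those of Mef2a and of Mef2c to Mef2d overlapped.

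Summed markers of macrophages and of dividing cells were higher in every injured library than in every non-injured one. Of 8 tested macrophage markers 4 (C1qb, Itgam, Lyz2 and Mrc1) rose in injured muscle by edgeR, and the 9 in the table summed to 96.7 to 171 CPM in injured and 43.1 to 50.6 CPM in non-injured libraries. Of 5 tested markers of dividing cells 1, Mki67, rose, and the 7 in the table summed to 19.9 to 38.4 CPM in injured and 8.03 to 9.18 CPM in non-injured libraries. Over all genes 0.715% were called higher. The groups did not overlap for 4 of the 5, as for 11.9% of all genes in that direction. Pcna and the untested Cdk1 and Ccnb1 overlapped. Top2a, Ccna2 and Birc5 had means under 20 counts, a class with a median log2 fold change of 0.39. Markers of muscle fibres, led by the giant sarcomere protein titin (Ttn), summed to 166400 to 173000 CPM in injured and 179600 to 188400 CPM in non-injured libraries, with 0 of 8 past the edgeR test (0 at an unadjusted p under 0.05). That sum is mostly Ttn, which averaged 134000 CPM in injured and 143500 CPM in non-injured libraries (log2 -0.10, edgeR adjusted p 0.748). Over the list 3 of 8 markers had a positive sign, with a median log2 fold change of -0.03, and the 7 markers other than Ttn overlapped between the groups. The part of fibre content in the values of Mef2a and Mef2c was not tested. Among 7 measured satellite cell markers, 0 passed (0 at an unadjusted p under 0.05 by edgeR). They include Pax7, Myf5 and Cdh15, and the rest are in the list of surface and niche genes below. The count therefore partly repeats those results. With the letter block 1 of the 7, Itga7, passed. The calcitonin receptor Calcr, a marker of quiescent satellite cells, was listed but had no row in the deposited table. Markers of endothelium, which also uses Mef2c, summed to 97.5 to 108 CPM in injured and 88.9 to 102 CPM in non-injured libraries, with 0 of 6 past the test (0 at an unadjusted p under 0.05 by edgeR). Markers of fibro-adipogenic progenitors summed to 187 to 218 CPM in injured and 169 to 184 CPM in non-injured libraries, and those of smooth muscle and pericytes to 120 to 140 CPM in injured and 105 to 125 CPM in non-injured ones. Schwann cell markers summed to 14.6 to 16.2 CPM in injured and 12.1 to 18.5 CPM in non-injured libraries, and lymphocyte markers to 2.42 to 4.44 CPM in injured and 1.38 to 5.49 CPM in non-injured ones. In edgeR 0 of 7 progenitor, 0 of 5 smooth muscle, 0 of 4 Schwann and 0 of 1 tested lymphocyte markers passed, with 3, 1, 0 and 0 at an unadjusted p under 0.05. The part of these cells in the values of the 9 genes was not tested. In bulk RNA, fewer cells of a type and less RNA per cell cannot be told apart.

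Genes that work with the 9 were looked at in 5 lists. Without the letter block 0 of their 78 tested genes passed in edgeR, where 0.746% of all genes were called. At an unadjusted p under 0.05 there were 21 of the 78, where 15.4% of all genes lay under that value. DESeq2 called 4 of them, against 2.03% of all genes, and limma-voom 0, against 0.367%. With the letter block 11 passed, 5 higher and 6 lower, where 3.21% of all genes were called higher and 2.65% lower. Where a pair of adjusted p-values is given below, they are edgeR's without and with the block.

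Partners and regulators of the myogenic factors included Six4 and Eya1, whose proteins act together upstream of the myogenic factors and in fast fibres. With the block 2 of 16 fell and 0 rose, at a list median of -0.05 in log2 fold change. Eya1 had 29.1, 20.02 and 20.4 CPM in injured A, B and C, against 38.5, 36.3 and 39.6 CPM in non-injured A, B and C. No injured library reached a non-injured one, and Eya1 fell by 0.73 on the log2 scale with the block (adjusted p 0.0697 without and 0.00787 with the block). Six4 had 61.7, 63.1 and 61.4 CPM in injured A, B and C, against 82.4, 81.2 and 86.2 CPM in non-injured A, B and C. These groups too were apart, with little spread in either, and Six4 fell by 0.42 with the block (adjusted p 0.143 without and 0.0313 with it). Eya4 (log2 -0.33) and Tcf12, an E-protein that pairs with the myogenic factors (log2 -0.33), did not pass in either fit (adjusted p 0.276 and 0.0881 for Eya4, 0.293 and 0.131 for Tcf12). Hes6, a helix-loop-helix repressor that promotes myogenesis, averaged 4.87 ± 0.22 CPM in injured and 2.65 ± 0.95 CPM in non-injured libraries (SD, n = 3 each) and did not pass (adjusted p 0.266 and 0.14).

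Among 18 tested regulators of MEF2 1 rose and 1 fell with the block, at a list median of -0.01. Hdac7, a class IIa histone deacetylase that binds MEF2 and represses its targets, had 20.4, 20.8 and 21.2 CPM in injured A, B and C, against 12.6, 13.7 and 12.3 CPM in non-injured A, B and C. Its groups were far apart relative to their spread, and the log2 fold change was 0.69 (adjusted p 0.0712 without and 0.0185 with the block). Camk2a, a calcium-activated kinase of a family known to relieve repression by such deacetylases, had 237, 218 and 226 CPM in injured A, B and C, against 306, 330 and 326 CPM in non-injured A, B and C. It lay lower in all injured libraries, with a log2 fold change of -0.50 (adjusted p 0.0912 without and 0.0113 with the block). The other class IIa members of the list, Hdac4 (log2 0.17), Hdac5 (0.07) and Hdac9 (-0.11), overlapped between groups and passed in neither fit (adjusted p 0.729 and 0.531 for Hdac4, 0.885 and 0.816 for Hdac5, 0.876 and 0.915 for Hdac9). The calcineurin subunit Ppp3cb (-0.35), the calcineurin-responsive factor Nfatc1 (-0.32) and Camk2g (-0.26) had negative values that passed in neither fit (adjusted p 0.277 and 0.0581 for Ppp3cb, 0.271 and 0.0956 for Nfatc1, 0.387 and 0.157 for Camk2g).

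Of 15 tested surface and niche genes of satellite cells 2 rose with the block, and the list's median was 0.11. Sdc3, a heparan sulphate proteoglycan of satellite cells, had 14.1, 11.9 and 16.5 CPM in injured A, B and C, against 6.63, 8.84 and 4.82 CPM in non-injured A, B and C. The groups did not overlap, and the log2 fold change was 1.06 (adjusted p 0.0697 without and 0.0166 with the block). Itga7, a laminin receptor of satellite cells and fibres, had 148, 120 and 108 CPM in injured A, B and C, against 129, 75.0 and 78.6 CPM in non-injured A, B and C. Letter A was high in both groups, so that the groups overlapped, and the log2 fold change with the block was 0.44 (adjusted p 0.36 without and 0.0314 with it). Notch1, a receptor that keeps satellite cells quiescent, averaged 16.6 ± 1.6 CPM in injured and 12.2 ± 1.09 CPM in non-injured libraries (SD, n = 3 each), with an adjusted p of 0.271 without and 0.136 with the block in edgeR. Chodl (log2 -0.44) and the growth factor receptor Met (-0.24) overlapped between groups and passed in neither fit (adjusted p 0.604 and 0.4995 for Chodl, 0.623 and 0.304 for Met).

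Genes of fusion and early differentiation were mixed, with 1 of 15 tested higher and 2 lower with the block and a list median of 0.32. Mymk and Mymx, also on that list, had no row in the deposited table. Tnnt2, the cardiac troponin T that developing and regenerating muscle also makes, had 4.13, 7.79 and 3.42 CPM in injured A, B and C, against 0.51, 1.72 and 1.21 CPM in non-injured A, B and C. All injured libraries lay above the non-injured ones at a mean of 21.7 counts, with a log2 fold change of 2.13 (adjusted p 0.0681 without and 0.00909 with the block). Myh3, the embryonic myosin heavy chain, had 1.99, 6.11 and 2.71 CPM in injured A, B and C, against 1.28, 1.26 and 1.61 CPM in non-injured A, B and C. Injured B stood out, and Myh3 did not pass (adjusted p 0.208 and 0.13). Actc1, the cardiac actin of developing muscle, had 7.96, 8.25 and 7.12 CPM in injured A, B and C, against 9.95, 43.9 and 9.91 CPM in non-injured A, B and C. Its call with the block (log2 -1.18, adjusted p 0.0337) goes with the high non-injured B, and without that library the unblocked log2 fold change was -0.37 (adjusted p 0.555). Mybph, a myosin-binding protein, had 70.7, 103 and 111 CPM in injured A, B and C, against 111, 146 and 127 CPM in non-injured A, B and C. Injured C and non-injured A nearly met, and the log2 fold change with the block was -0.45 (adjusted p 0.278 without and 0.0309 with it). Ncam1 (log2 0.63) and Gadd45a (0.52), genes known to rise on denervation, overlapped and passed in neither fit (adjusted p 0.317 and 0.105 for Ncam1, 0.266 and 0.116 for Gadd45a).

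Of 14 fibre genes with known MEF2 sites 1 rose and 1 fell with the block, at a list median of -0.14. Nr4a1, an orphan nuclear receptor, had 67.2, 41.3 and 41.7 CPM in injured A, B and C, against 84.8, 71.1 and 62.0 CPM in non-injured A, B and C. Letter A was the highest in both groups, and injured A lay above non-injured C. The log2 fold change with the block was -0.56 (adjusted p 0.223 without and 0.0136 with it). Hspb7, a small heat shock protein of heart and muscle, had 281, 278 and 288 CPM in injured A, B and C, against 194, 213 and 211 CPM in non-injured A, B and C. The groups were apart, and the log2 fold change was 0.45 (adjusted p 0.12 without and 0.0162 with the block). Ckm, the muscle creatine kinase, had a log2 fold change of 0.01 (adjusted p 0.984 and 0.997) and overlapped between groups. Pygm (-0.30) and Myoz1 (-0.33) had negative values and passed in neither fit (edgeR adjusted p 0.31 and 0.14 for Pygm, 0.453 and 0.109 for Myoz1).

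**Figure D4:**
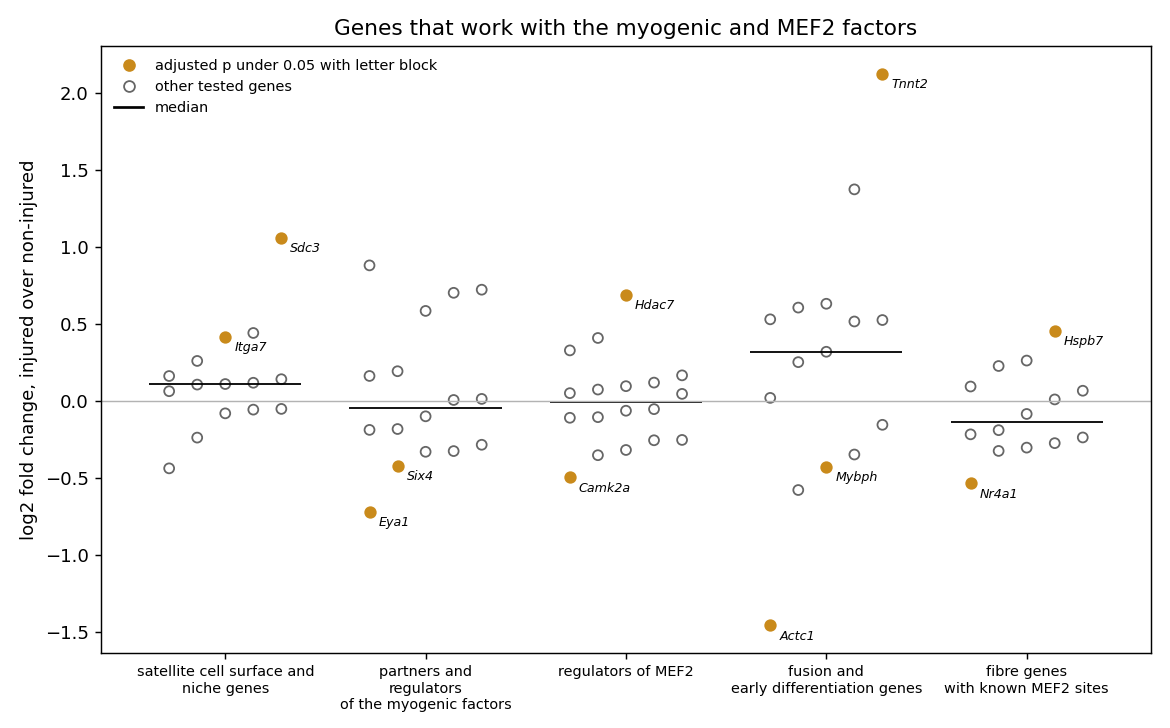
Log2 fold changes of injured over non-injured (y axis, edgeR without the letter block) for the tested genes of 5 lists (x axis), each point a gene and each line a list median. Filled points are the 11 genes with an adjusted p under 0.05 with the letter block, from Tnnt2 (2.13) to Actc1 (-1.46), and points are spread sideways so that they can be told apart.

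Library totals ran from 6.45 to 7.50 M counts in the injured group and from 7.23 to 8.75 M in the non-injured group. RNA of the mitochondrial genome took 9.53% to 11.2% of counts in injured and 6.20% to 7.52% in non-injured libraries. With these genes, 7SL RNAs, Malat1 and Ttn left out of the scaling, 0 of the 9 genes passed in edgeR. Letter A libraries were also left out of both groups together, and 0 of the 9 passed then.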

How the data were processed

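Total RNA of quadriceps was extracted with TRIzol and a column kit, per the labels' protocols, while the name of the deposited table speaks of myonuclear RNA. Gene-level estimated counts were deposited in 1 table, in which 72.2% to 74.5% of a library's values are whole. Per the submitters' processing notes, STAR 2.7.8a, Partek, DESeq2 and the builds mm10 and hg19 were used, with no role named. For the counter, strand and annotation nothing is given in the sources used here. No gene was under 10 counts in all 6 libraries.

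Counts were rounded, filtered with edgeR's filterByExpr (16095 genes kept), TMM-scaled and compared by edgeR's quasi-likelihood F test, injured against non-injured, two-sided, with Benjamini-Hochberg adjustment over all genes and a threshold of 0.05 (edgeR 4.0.16, R 4.3.3). A standard error is |log2 fold change| divided by √F. CPM use the TMM factors. The fitting code was tested on simulated data. Alternatives were other scalings (also without mitochondrial-genome genes, 7SL RNAs, Malat1 and Ttn), other filters, DESeq2 1.42.0, limma-voom 3.58.1, the letter block, and leaving out libraries.

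The members and lists were chosen with earlier results of these data known. Named were the 9 genes and, from each list, genes past the threshold in either edgeR fit and up to 3 more with the smallest p. A gene that this rule names is not reported here. Hdac4, Hdac5, Hdac9 and Ckm were added after their values were seen. For members past the threshold in either fit the most similar genes were to be named, and none passed.

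The meaning of the letters is not stated. Deviations from each group's mean on log2(CPM + 0.5) were correlated across groups over 16095 genes. Within a letter the correlation was 0.34 (A), 0.221 (B) and 0.12 (C), each above 0.1. Between different letters it ran from -0.25 (injured B, non-injured A) to 0.07 (injured B, non-injured C). The letters were therefore used to pair the libraries in the fit with the letter block. Deviations within a group sum to 0, which ties the values within and between letters together. These correlations thus cannot show that the letters are true pairs. The pairing comes from the same data as the calls made with it. Lengths and positions are from GENCODE M21 on mm10, and promoter sequences from RefSeq on GRCm38.p6.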

Additional observations from a re-analysis of the deposited data

How the results depend on the processing

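The 9 genes gave 0 calls in all 15 alternatives. Of their log2 fold changes, those of Myf5, Myog, Myf6, Cdh15, Mef2a, Mef2c and Mef2d kept their sign in every alternative that tested them, and Myog ran from 0.36 to 0.86 and Mef2a from -0.47 to -0.24. Pax7 turned to -0.0084 without a filter, -0.15 with limma-voom and -0.053 with the letter as replicate block, and ran from -0.31 to 0.48 when 1 library was left out. Myod1 turned to 0.0011 with a mean of at least 50 counts, a filter that left out Pax7 and Myf5. The causes were not tested.

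Over all genes 120 passed, against 327 with DESeq2, 59 with limma-voom, 943 with the replicate block, 297 without both letter A libraries, and 20 (without non-injured C) to 129 (without non-injured A) when 1 library was left out (72 without injured B, 36 without injured C and 48 without non-injured B). The 4 lists of niche genes, partners, MEF2 regulators and MEF2-site genes each gave 2 calls with the replicate block and 1 without both letter A libraries, and the fusion list gave 3 with the block. DESeq2 gave 1 call in each list but that of MEF2-site genes. Leaving out 1 library gave 0 calls in each list, apart from 1 (Eya1) among the partners without injured A, so that list ran from 0 to 1. Calls with the block are more frequent over all genes too. Pax7 and Myf5 had the fewest counts of the 9 genes, with means of 23.5 and 11.2 per library.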
